A study of Mus musculus with 63 samples.

Results

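Hearts of newborn mice (postnatal day 1, P1) that carried the tet-off driver transgene alone were compared with hearts of nontransgenic mice of the same age. The comparison rests on the 11 libraries whose labels give this age and these genotypes, 5 tet-off and 6 nontransgenic, of 63 in the series. They were chosen by label and not by a measured value. In a tet-off system the driver makes the tetracycline-controlled transactivator, a fusion of a bacterial repressor with a viral activation domain, which switches on a second transgene unless doxycycline is given. Animals with the driver alone are the usual control for the transactivator itself and for the place in the genome where the driver sits. Late gestation and the first days after birth are also when the heart turns from a glycolytic, proliferating organ with fetal sarcomere proteins to an oxidative one.

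All mice were of the inbred strain FVB/N. The driver hearts are labelled tet-off control and the others nontransgenic. The labels give no promoter, founder line or doxycycline schedule for the driver. The tissue label at P1 is whole heart, while the extract protocol speaks of ventricular apexes. Polyadenylated RNA was read from single ends without strand information, and the P1 libraries were made in 1 batch. The remaining P1 hearts, 3 Mfn2AA and 4 Mfn2wt, overexpress a mutated or an unmutated human mitofusin 2. They entered the model to help estimate the spread, and also bore on which genes were tested and how counts were scaled. The first part of the number in each library's title took 3 values among tet-off hearts and 2 among nontransgenic hearts. What this number stands for is not given in the sources used here, and since no number occurs in both groups, genotype and number cannot be told apart.

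Total counts were 4557894 to 14844064 per tet-off library and 7147271 to 12380233 per nontransgenic library. The ribosomal RNA repeat Rn45s took 2.66% to 9.59% of the counts in tet-off libraries and 3.35% to 14.1% in nontransgenic libraries. In 2 of 5 tet-off libraries (P1_tetoff_10587-1 and P1_tetoff_10619-3) and 2 of 6 nontransgenic libraries (P1_ntg_10546-4 and P1_ntg_10582-5) both Xist, made by female cells, and the summed Y-linked genes exceeded 20 CPM (read counts scaled to the size of each library). The named genes that lost their call without these 4 libraries are listed with the counts of calls. No library pair agreed within counting noise. Summed ventricular cardiomyocyte markers reached 100888 to 127436 CPM in tet-off hearts and 94623 to 122135 CPM in nontransgenic hearts. Summed lung and thymus markers stayed between 1.48 and 4.16 CPM in tet-off hearts and between 1.28 and 2.91 CPM in nontransgenic hearts, and no gene of that list was high enough to be tested.

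The human MFN2 transgene, which neither genotype should carry by its label, had 19.96, 155, 7.39, 39.8 and 39.4 FPKM (fragments scaled to transcript length and library size) in the 5 tet-off hearts. In the nontransgenic hearts it had 29.1, 5.66, 16.3, 3.45, 1.79 and 97.6 FPKM. The groups overlapped, and their mean log2(FPKM + 1) of 5.09 ± 1.54 and 3.67 ± 1.92 (SD, n = 5 and 6) did not pass an exact two-sided permutation test (p = 0.216; the smallest p possible was 0.00433). The overexpressing hearts stood far above both, with 1878 to 2438 FPKM in Mfn2AA and 264 to 494 FPKM in Mfn2wt.

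Of 13653 genes tested, 177 (1.3%) were called, which means an adjusted p under 0.05 in edgeR's quasi-likelihood test with Benjamini-Hochberg adjustment. A total of 108 were higher (0.791%) and 69 were lower (0.505%) in tet-off hearts. These are the shares to set beside the counts of called genes in the lists below. Most differences were small: the median log2 fold change was 0.49 among the genes called higher, which is 1.40-fold, and -0.61 among those called lower, against -0.01 over all genes tested. An unadjusted p under 0.05 was found for 2205 of all genes tested (16.2%), which is the share to set beside the unadjusted counts of the gene lists. Changes of at least 2-fold were found for 14 genes in the higher direction and 11 in the lower. In 118 of the 177 the tet-off and nontransgenic values did not overlap, which was so for 327 of all genes tested (2.4%). The count of calls depended on single hearts. It was 73, 89 or 90 without P1_ntg_10582-4, P1_ntg_10582-3 or P1_ntg_10582-5, 80, 87 or 101 without P1_tetoff_10619-3, P1_tetoff_10587-3 or P1_tetoff_10619-2, and 355 without P1_tetoff_10587-1. It was 79 without the 4 libraries with Xist and Y-linked reads, and 123 with the tet-off and nontransgenic hearts alone, which kept 106 of the 177. It was 50 when the title number entered as a random effect. That fit used limma's voom in place of edgeR, and its correlation within a title number was 0.084. No voom fit without the number was made, so the effects of test and number on the count cannot be told apart. Every one of the 177 that was tested kept its direction in each of these fits. Among 55 called genes that are named here, 23 stayed called whichever heart was left out, and 13 stayed called under each of up to 23 alternatives: Endod1, Krt80, Myl9, Adamtsl5, Lss, Grwd1 and Slc16a1 among the rises and Fmo1, Ttc30b, Zfp949, BC026585, Capn3 and Hexa among the falls.

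Leaving out the 4 libraries with Xist and Y-linked reads took away 2 of 5 tet-off and 2 of 6 nontransgenic hearts. The effects of fewer hearts and of these libraries on the calls cannot be told apart. Without these 4 libraries, 28 of the 55 lost their call, at edgeR adjusted p of 0.0520 to 0.244. They were Acta2, Kcne1, Dnm1l, Polrmt, Pfkp, AI661453, Pstpip1, Ttll11, Shisa3, Nipal4, Iigp1, Enpp2, Foxp2, Phactr1, Glo1, Dnahc8, Sesn3, Acss2, Rrp12, Polr1e, Nop2, Fam46b, Tgm2, Fbxw7, Tmem108, Zfp945, 9430037G07Rik and 9330159M07Rik. In the voom fit with the title number, 35 of the 55 lost their call, at adjusted p of 0.0515 to 0.259. Those that kept it besides the 13 above were Mgarp, Polrmt, Adam22, Nipal4, Dnahc6, Phactr1 and Glo1.

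**Figure D1:**
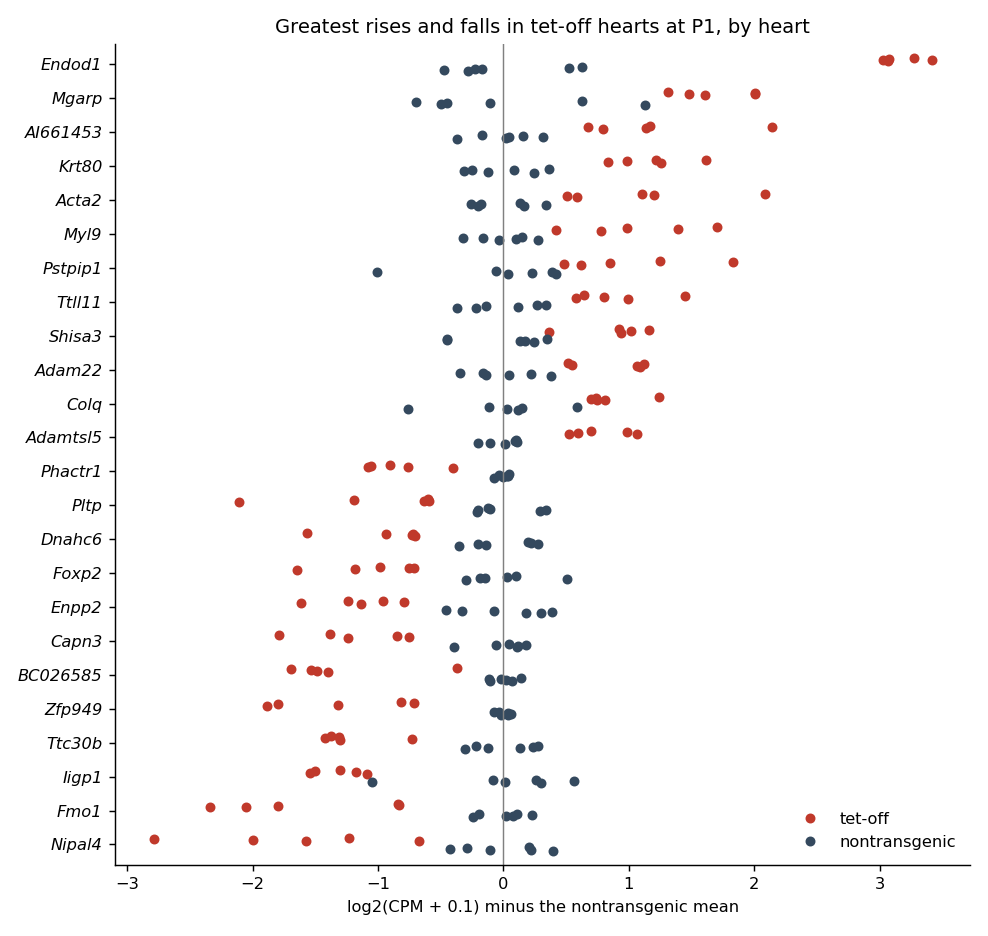
Each point is 1 heart, placed by log2(CPM + 0.1) minus the mean of the 6 nontransgenic hearts, for the 12 greatest rises (upper rows) and 12 greatest falls (lower rows) of called genes without overlap between the groups. The 5 tet-off hearts are drawn in red and the 6 nontransgenic hearts in blue. Endod1 stands far to the right of all other genes, and single tet-off hearts stand apart for Acta2, BC026585 and AI661453.

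The largest difference by far was in Endod1, which encodes a protein with an endonuclease domain and lies on the minus strand of chromosome 9 (mm10, chr9:14353990-14381242). It had 112, 143, 109, 113 and 129 CPM in the tet-off hearts, against a range of 9.57 to 20.6 CPM with a median of 11.6 CPM in the nontransgenic hearts. Every tet-off heart was far above every nontransgenic heart. The log2 fold change was 3.14 ± 0.20 (SE), or 8.79-fold, with an edgeR adjusted p of 5.07e-09. Mfn2AA hearts had 114 to 238 CPM of Endod1 and Mfn2wt hearts 13.5 to 21.4 CPM. Of the 7 genes tested within 500000 bases of it, Endod1 included, 2 were called. The window was centred on Endod1, itself a called gene, so this count cannot be compared with the 1.3% of all genes tested. The other called gene was Sesn3, which encodes sestrin 3, an inhibitor of the growth kinase complex mTORC1, 27856 bases away. Sesn3 had 16.9, 17.0, 15.7, 16.2 and 14.6 CPM in tet-off hearts, against 11.4 to 14.2 CPM (median 12.1) in nontransgenic hearts. Its groups did not overlap, but the log2 fold change was only 0.36 ± 0.09 (edgeR adjusted p = 0.0412). The Sesn3 call held in 1 of 11 fits that left out 1 heart (the fit without P1_ntg_10582-4), and the adjusted p reached 0.163 over all alternatives.

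A pair of neighbours on chromosome 17 was also higher. Glo1 encodes glyoxalase 1, which clears the reactive sugar by-product methylglyoxal with glutathione, and its segment of chromosome 17 is known to vary in copy number among inbred mouse strains. Glo1 (chr17:30592862-30612659) had 170, 165, 69.7, 226 and 175 CPM in the tet-off hearts and 72.1 to 84.2 CPM (median 79.3) in the nontransgenic hearts. Of the tet-off hearts 4 were at 165 CPM or more, while P1_tetoff_10587-3 lay below the lowest nontransgenic heart. The log2 fold change was 1.02 ± 0.18 (edgeR adjusted p = 0.00717) with all hearts and 1.23 (adjusted p = 3.26e-07) without P1_tetoff_10587-3. The call was lost without the 4 libraries with Xist and Y-linked reads, at a log2 fold change of 0.99 and an adjusted p of 0.0755. Dnahc8, an axonemal dynein heavy chain gene 14277 bases away, showed the same pattern of hearts. It had 4.37, 4.84, 1.69, 5.83 and 4.14 CPM in tet-off hearts and 1.37 to 1.90 CPM (median 1.63) in nontransgenic hearts, and P1_tetoff_10587-3 again lay within the nontransgenic range. The log2 fold change of Dnahc8 was 1.31 ± 0.29 (edgeR adjusted p = 0.0291). Without P1_tetoff_10587-3 it was 1.57 (adjusted p = 0.00616). Its call held in 4 of 11 fits that left out 1 heart, and the adjusted p reached 0.259 with the title number as a random effect. Of 6 genes tested within 500000 bases of Glo1, Glo1 included, these 2 were called. This window too was centred on a called gene, so the count cannot be compared with the 1.3% of all genes tested. Btbd9 in the same stretch had a log2 fold change of 0.25 (edgeR adjusted p = 0.185).

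**Figure D2:**
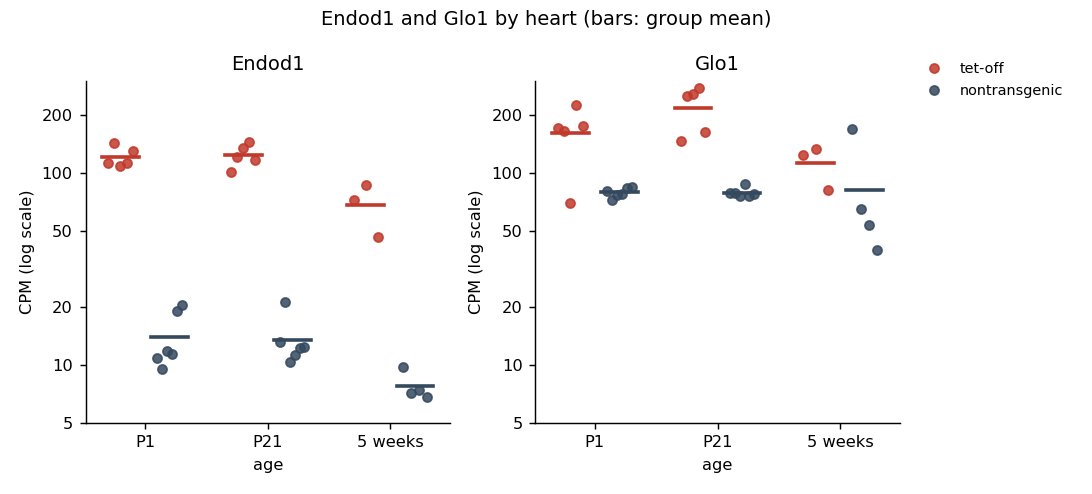
CPM of Endod1 and Glo1 on a log axis at P1, P21 and 5 weeks, with 1 point per heart, bars at the group means, tet-off left of nontransgenic. Endod1 is separated at each age, while for Glo1 P1_tetoff_10587-3 (69.7 CPM at P1) and 1 nontransgenic heart of 5 weeks (170 CPM) lie with the other genotype.

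A further group on chromosome 9, picked after its values were seen, held calls in both directions. Zfp949, a zinc finger protein gene, had 7.08, 10.6, 7.54, 16.1 and 14.9 CPM in tet-off hearts, against 25.1 to 27.7 CPM (median 26.6) in nontransgenic hearts. All tet-off hearts were lower, by a log2 fold change of -1.23 ± 0.20 (edgeR adjusted p = 0.00525). The uncharacterised gene 9430037G07Rik, 24239 bases from it, had 3.75, 2.64, 2.79, 1.30 and 2.65 CPM in tet-off hearts and 0.749 to 1.24 CPM (median 0.84) in nontransgenic hearts. All tet-off hearts were higher here (1.51 ± 0.29 on the log2 scale, edgeR adjusted p = 0.0126, called under 18 of 23 alternatives, with an adjusted p of 0.068 without the 4 libraries with Xist and Y-linked reads). 9330159M07Rik in the same stretch was also called higher (1.11 ± 0.26, adjusted p = 0.0373), under 9 of 23 alternatives. It overlaps an exon of Trim43c on the opposite strand. The genes tested in this stretch were not counted, so no share can be given. Called genes also lay near each other elsewhere. Krt80 and Nr4a1 on chromosome 15 were 74777 bases apart, and Adamtsl5 and Polrmt on chromosome 10 were 594135 bases apart.

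Genes of the smooth muscle contractile apparatus were the only calls among the 12 cell type lists. Of the tested genes of their list, 9 had a positive and 9 a negative difference. Of 18 smooth muscle and pericyte markers tested, 3 were called higher (against 0.791% of all genes tested) and 0 lower. An unadjusted p under 0.05 was found for 7 of these 18 (against 16.2% of all genes tested). Their median log2 fold change was 0.02, and over the alternatives 1 to 6 were called higher. The 3 were Acta2, which encodes smooth muscle alpha-actin and is also made by immature heart muscle cells, Myl9, a regulatory light chain of smooth muscle and nonmuscle myosin, and Csrp1, a LIM-domain protein of smooth muscle. A stretch of 170 bases before the start of transcription is shown for Acta2 and Myl9, the called genes of this list with the largest changes. They were also picked because both hold matches to the CArG box, the motif bound by serum response factor. It was searched as a pair of C, 6 bases of which at most 1 is neither A nor T, and a pair of G. The match reads the same way on both strands. Capitals mark the matches. The sequences are from RefSeq on GRCm38.p6, 5′ to 3′ on the gene's own strand, at chr2:156775294-156775463 (plus strand) for Myl9 and chr19:34255374-34255543 (minus strand) for Acta2.
Myl9: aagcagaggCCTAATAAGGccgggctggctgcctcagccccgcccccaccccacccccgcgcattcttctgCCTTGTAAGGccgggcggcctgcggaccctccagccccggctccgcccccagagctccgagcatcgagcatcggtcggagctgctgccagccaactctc
Acta2: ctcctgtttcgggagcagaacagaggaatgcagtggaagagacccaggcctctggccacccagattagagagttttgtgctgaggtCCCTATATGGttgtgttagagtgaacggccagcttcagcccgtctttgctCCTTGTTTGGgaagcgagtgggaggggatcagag

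The matches begin 161 and 99 bases before the start of Myl9 and 84 and 34 bases before that of Acta2. Such a match occurred in the promoter window (250 bases before to 50 after the start) of 2 of 14 genes of the smooth muscle list with an entry (14.3%), 9 of 79 genes called higher with an entry (11.4%) and 3280 of all 32851 promoters (9.98%). These shares lie close together, and a match is a description of the letters.

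Myl9 had 1061, 830, 1621, 1224 and 2012 CPM in tet-off hearts, against 496 to 750 CPM (median 632) in nontransgenic hearts. Acta2 had 1727, 1632, 2644, 2470 and 4870 CPM in tet-off hearts, against 959 to 1456 CPM (median 1137) in nontransgenic hearts. Neither gene overlapped between groups, and for both P1_tetoff_10619-3 was the highest heart. Myl9 rose by 1.11 ± 0.19 on the log2 scale (edgeR adjusted p = 0.00681). Acta2 rose by 1.20 ± 0.24 (adjusted p = 0.0138), or 0.87 (adjusted p = 0.0453) without P1_tetoff_10619-3. The Acta2 call was lost with the title number as a random effect (1.05, adjusted p = 0.0562) and without the 4 libraries with Xist and Y-linked reads (1.04, adjusted p = 0.0520). Csrp1 had 280, 225, 356, 459 and 349 CPM in tet-off hearts and 174 to 268 CPM (median 218) in nontransgenic hearts, which overlapped, for a log2 fold change of 0.62 ± 0.15 (adjusted p = 0.0458, called in 3 of 11 fits that left out 1 heart).

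Among smooth muscle genes named after their values were seen, Myh11 and Tagln did not share this rise. Myh11, the smooth muscle myosin heavy chain, differed by -0.09 on the log2 scale (edgeR adjusted p = 0.895) and Tagln, transgelin, by -0.05 (adjusted p = 0.959). Calponin, Cnn1, leaned the same way as Acta2 and Myl9 at 0.81 ± 0.26 without passing (adjusted p = 0.121). The pericyte gene Cspg4 did so at 0.38 (adjusted p = 0.0651). The summed level of the whole list was 4043 to 8745 CPM in tet-off hearts and 3109 to 3839 CPM in nontransgenic hearts, carried by the abundant Acta2 and Myl9. In bulk tissue, more cells of a type and more RNA per cell cannot be told apart.

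**Figure D3:**
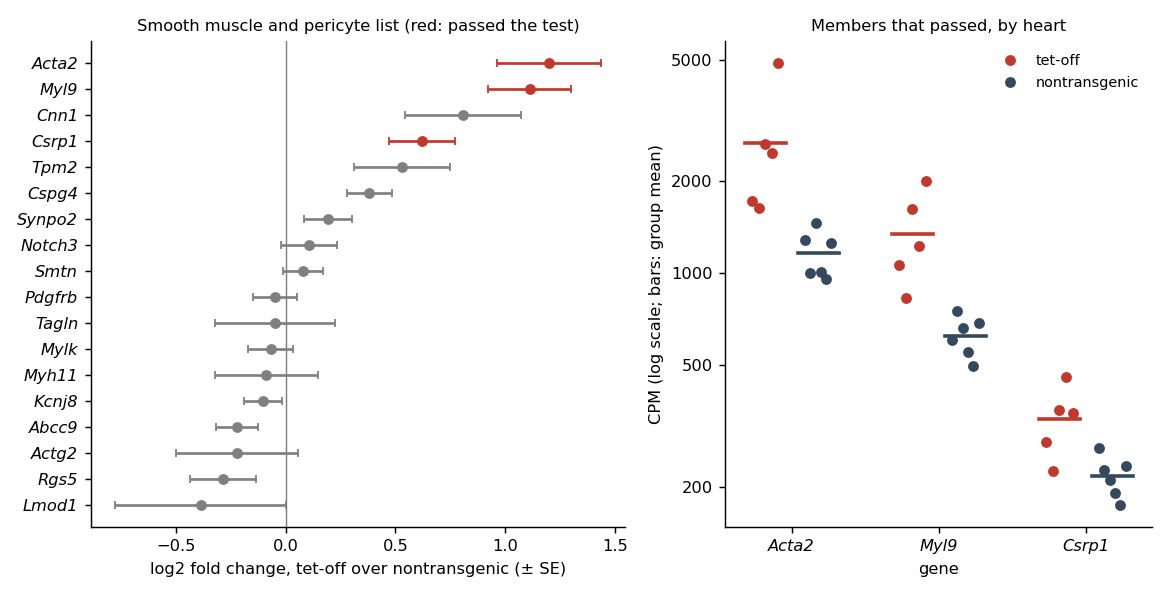
One panel gives the log2 fold change at P1 with its standard error for the 18 tested smooth muscle and pericyte markers, with called genes in red. The other gives CPM by heart on a log axis, tet-off left of nontransgenic, for Acta2, Myl9 and Csrp1. Tagln and Myh11 sit near 0 while Acta2 and Myl9 sit above 1.

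Among sarcomere isoforms of the fetal heart, 15 of which were tested, 2 were called higher (against 0.791% of all genes tested) and 1 lower (against 0.505%). An unadjusted p under 0.05 was found for 7 (against 16.2% of all genes tested), and the list median was -0.05. The rises were Acta2 and Myl9, which are also in the smooth muscle list, and the fall was Myom2. Myom2 encodes myomesin 2, which links thick filaments in the M-band and appears with maturation of the muscle. It had 507, 455, 427, 403 and 456 CPM in tet-off hearts and 532 to 854 CPM (median 697) in nontransgenic hearts, without overlap, for a log2 fold change of -0.60 ± 0.13 (edgeR adjusted p = 0.0228). The Myom2 call held in 7 of 11 fits that left out 1 heart. Acta1, skeletal muscle actin, was 1.16 ± 0.33 on the log2 scale and did not pass (adjusted p = 0.082). None of the 20 tested natriuretic and cardiac stress genes was called, with 8 at an unadjusted p under 0.05 (16.2% over all genes tested) and a list median of 0.24. Nppb, the gene of brain natriuretic peptide, had 340, 106, 155, 474 and 291 CPM in tet-off hearts, against 60.6 to 201 CPM (median 96.6) in nontransgenic hearts. These ranges overlapped, and the log2 fold change of 1.31 ± 0.35 missed the threshold (edgeR adjusted p = 0.0663). In another list, of actin regulation and targets of serum response factor, 0 of 20 tested genes were called. An unadjusted p under 0.05 was found for 9 of them (against 16.2% of all genes tested), and the median was 0.15. Their summed level was 11138 to 14601 CPM in tet-off hearts and 10348 to 11514 CPM in nontransgenic hearts, which overlapped. Ctgf, a matricellular growth factor gene of that list, missed the threshold at 1.07 ± 0.32 (adjusted p = 0.0897).

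The other greatest rises came from genes of varied function, some of them expressed at a few CPM. Mgarp, which encodes a mitochondrial protein named for its glutamic acid repeats, had 1.46, 1.32, 1.95, 1.94 and 1.17 CPM in tet-off hearts, against 0.214 to 1.01 CPM (median 0.325) in nontransgenic hearts. Its log2 fold change of 1.82 ± 0.36 (edgeR adjusted p = 0.0131) was the second largest of the rises named, and the adjusted p passed the threshold in 10 of 11 fits that left out 1 heart, the exception being P1_tetoff_10587-3 (1.71, adjusted p = 0.0513). AI661453 had 4.37, 5.57, 4.03, 11.3 and 5.73 CPM in tet-off hearts and 1.90 to 3.12 CPM (median 2.54) in nontransgenic hearts (1.28 ± 0.26, adjusted p = 0.0154). Its call was lost with the title number as a random effect (1.17, adjusted p = 0.0996) and without the 4 libraries with Xist and Y-linked reads (adjusted p = 0.106). P1_tetoff_10619-2 was far above the other tet-off hearts for it. The gene overlaps an exon of 1700001C19Rik on the opposite strand, and in libraries without strand their reads cannot be told apart. The keratin gene Krt80 had 10.8, 8.07, 8.97, 13.9 and 10.5 CPM in tet-off hearts and 3.57 to 5.77 CPM (median 4.42) in nontransgenic hearts, with all tet-off hearts higher (1.21 ± 0.18, adjusted p = 0.0036).

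Adamtsl5, a secreted matrix protein related to the ADAMTS proteases, had 48.5, 33.3, 34.8, 45.8 and 37.4 CPM in tet-off hearts, against 20.1 to 24.9 CPM (median 24.0) in nontransgenic hearts. It rose by 0.78 ± 0.13 on the log2 scale (edgeR adjusted p = 0.00595). Adam22, a member of the ADAM family without protease activity, had 25.4, 24.9, 17.4, 25.9 and 17.1 CPM in tet-off hearts and 9.34 to 15.5 CPM (median 11.5) in nontransgenic hearts (0.86 ± 0.14, adjusted p = 0.00525). In both, every tet-off heart was above every nontransgenic heart. Colq, the collagen tail that anchors acetylcholinesterase, had 20.4, 19.5, 18.9, 19.4 and 27.5 CPM in tet-off hearts and 6.78 to 17.4 CPM (median 12.2) in nontransgenic hearts. It rose by 0.83 ± 0.18 (adjusted p = 0.0224), and lost its call without P1_tetoff_10619-3 (0.71, adjusted p = 0.0688) or without P1_ntg_10582-4 (0.80, adjusted p = 0.0553). Pstpip1, an adaptor of the actin cytoskeleton in blood cells, was called at 1.06 ± 0.24 (adjusted p = 0.0322), Ttll11, which adds glutamate chains to tubulin, at 0.93 ± 0.23 (adjusted p = 0.049), and Shisa3, a modulator of Wnt and FGF signalling, at 0.89 ± 0.19 (adjusted p = 0.0228). These last calls were fragile: they held under 12 of 23, 4 of 23 and 13 of 21 alternatives.

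Among the falls, Fmo1, a flavin monooxygenase that oxidises drugs and other foreign compounds, had 1.67, 2.05, 2.47, 4.93 and 4.88 CPM in tet-off hearts, against 7.47 to 10.4 CPM (median 9.15) in nontransgenic hearts. P1_tetoff_10619-2 and P1_tetoff_10619-3 were the higher of the tet-off hearts, still below all nontransgenic ones. It fell by 1.44 on the log2 scale, with an SE of 0.23 (edgeR adjusted p = 0.00537). Nipal4, of a family of magnesium transporters, had 1.46, 0.734, 0.52, 0.259 and 0.954 CPM in tet-off hearts and 1.75 to 3.17 CPM (median 2.47) in nontransgenic hearts, the largest of the falls named (-1.73 ± 0.30, adjusted p = 0.00717). Its adjusted p was 0.0563 without the 4 libraries with Xist and Y-linked reads. Ttc30b, a subunit of the intraflagellar transport machinery that builds cilia, had 3.12, 4.69, 2.86, 3.11 and 2.97 CPM in tet-off hearts and 6.33 to 9.53 CPM (median 7.91) in nontransgenic hearts (-1.27 ± 0.19, adjusted p = 0.0041). It was the only called gene of 26 tested cilium genes, whose median was -0.14 and whose summed level did not overlap between groups, at 383 to 416 CPM in tet-off hearts and 419 to 465 CPM in nontransgenic hearts.

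Capn3, the muscle calpain whose loss causes a limb-girdle muscular dystrophy in humans, had 2.71, 3.81, 3.57, 1.82 and 2.44 CPM in tet-off hearts, against 4.94 to 7.39 CPM (median 6.89) in nontransgenic hearts (-1.18 ± 0.18, edgeR adjusted p = 0.0036). BC026585 had 7.49, 7.04, 6.82, 6.09 and 15.4 CPM in tet-off hearts and 18.4 to 22.0 CPM (median 19.9) in nontransgenic hearts (-1.20 ± 0.17, adjusted p = 0.0036). For Capn3 the tet-off hearts were spread evenly, whereas for BC026585 P1_tetoff_10619-3 was the lone high tet-off heart. Hexa, the alpha subunit of the lysosomal enzyme beta-hexosaminidase, had 25.0, 24.8, 28.5, 22.0 and 29.1 CPM in tet-off hearts and 33.9 to 40.2 CPM (median 35.1) in nontransgenic hearts. Its fall was small (-0.47 ± 0.09, adjusted p = 0.0106) but without overlap. Dnahc6, another axonemal dynein heavy chain (-0.94 ± 0.17, adjusted p = 0.00749), Phactr1, a regulator of actin and protein phosphatase 1 (-0.84 ± 0.15, adjusted p = 0.00745), and Pltp, which moves phospholipids between lipoproteins (-0.91 ± 0.19, adjusted p = 0.0222), fell as well. Phactr1 lost its call without the 4 libraries with Xist and Y-linked reads (-0.75, adjusted p = 0.0881). Pltp overlaps an exon of Ctsa on the opposite strand, and it lost its call without P1_tetoff_10619-2 (-0.83, adjusted p = 0.0616). The transcription factor gene Foxp2 (-1.03 ± 0.23, adjusted p = 0.0296), the interferon-inducible GTPase gene Iigp1 (-1.44 ± 0.32, adjusted p = 0.0291) and Enpp2, which makes the lipid mediator lysophosphatidic acid (-1.16 ± 0.29, adjusted p = 0.0458), held their calls in 5, 5 and 0 of 11 fits that left out 1 heart.

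Genes of mitochondrial fusion, fission and transport leaned upward by small amounts. Of 22 tested, Mgarp and Dnm1l were called higher (against 0.791% of all genes tested) and 0 lower. An unadjusted p under 0.05 was found for 10 (against 16.2% of all genes tested), and the median was 0.19. The summed level of the list was 3877 to 4390 CPM in tet-off hearts and 3551 to 3738 CPM in nontransgenic hearts, with no overlap. Mfn2, the mouse gene of the fusion protein mitofusin 2, had 807, 727, 955, 764 and 1016 CPM in tet-off hearts and 668 to 782 CPM (median 706) in nontransgenic hearts, and did not pass (0.26 ± 0.10, edgeR adjusted p = 0.179). Dnm1l, which encodes the fission dynamin Drp1, had 103, 99.9, 92.9, 96.3 and 91.4 CPM in tet-off hearts and 75.3 to 88.2 CPM (median 79.0) in nontransgenic hearts. These did not overlap and gave 0.28 ± 0.07 (adjusted p = 0.0458), a call that held in 1 of 11 fits that left out 1 heart. The mitophagy genes Pink1 (-0.24 ± 0.08, adjusted p = 0.152) and Park2 (-0.49 ± 0.20, adjusted p = 0.241) were not called in any of 23 alternatives, nor was Mfn2. Polrmt, the mitochondrial RNA polymerase, had 46.8, 42.8, 50.7, 51.3 and 53.7 CPM in tet-off hearts, against 31.7 to 39.7 CPM (median 35.2) in nontransgenic hearts. All tet-off hearts were higher (0.46 ± 0.08, adjusted p = 0.00759), but the adjusted p was 0.0565 without the 4 libraries with Xist and Y-linked reads. Polrmt belongs to a separate list of mitochondrial biogenesis regulators. It was the only call of 17 tested there (against 0.791% of all genes tested called higher), and that list's median was 0.01. None of 13 mitochondrially encoded genes, 35 complex I genes or 41 genes of complexes II to V was called.

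In fuel use, 2 of 25 tested glycolysis genes were called higher (against 0.791% of all genes tested) and 0 lower. An unadjusted p under 0.05 was found for 11 (against 16.2% of all genes tested), and the median was 0.18. Slc16a1, the monocarboxylate carrier for lactate and pyruvate, had 236, 169, 189, 248 and 197 CPM in tet-off hearts and 129 to 156 CPM (median 143) in nontransgenic hearts. Every tet-off heart was higher, for a log2 fold change of 0.53 ± 0.10 (edgeR adjusted p = 0.0111). The other was Pfkp, a phosphofructokinase isoform (0.40 ± 0.09, adjusted p = 0.027), which overlaps an exon of Pitrm1 on the opposite strand and was called in 6 of 11 fits that left out 1 heart. Of 35 tested genes of fatty acid uptake and oxidation, Acsl3 alone was called. This acyl-CoA ligase had 18.3, 25.5, 16.6, 15.7 and 28.2 CPM in tet-off hearts and 8.24 to 18.1 CPM (median 9.43) in nontransgenic hearts (0.99 ± 0.21, adjusted p = 0.0228). The high nontransgenic heart, P1_ntg_10546-4, overlapped the tet-off hearts, and Acsl3 shares exon sequence with Utp14b on the same strand. Its call was lost with the title number as a random effect (adjusted p = 0.0684) and without P1_ntg_10582-3, P1_ntg_10582-4, P1_ntg_10582-5 or P1_tetoff_10619-3 (adjusted p = 0.0506 to 0.0687). Slc7a5, a carrier of large amino acids in the integrated stress response list, rose by 0.68 ± 0.13 (adjusted p = 0.0131), and its adjusted p was 0.0598 with the title number as a random effect. Slc7a5 was the only call of the 24 tested genes of that list (against 0.791% of all genes tested called higher), and the list median was 0.04.

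The 26 tested ion channel and gap junction genes had a median of -0.14. Of these, 2 were called lower (against 0.505% of all genes tested) and 0 higher. Both encode accessory subunits of potassium channels that repolarise the heart. Kcnip2, of the transient outward current, had 75.1, 84.1, 72.6, 43.4 and 77.3 CPM in tet-off hearts and 86.9 to 128 CPM (median 112) in nontransgenic hearts. Kcne1, of the slow delayed rectifier, had 114, 89.2, 92.9, 76.1 and 82.2 CPM in tet-off hearts and 117 to 136 CPM (median 128) in nontransgenic hearts. Neither overlapped between groups. The log2 fold changes were -0.67 ± 0.15 for Kcnip2 (edgeR adjusted p = 0.0275) and -0.49 ± 0.12 for Kcne1 (adjusted p = 0.038), and the calls held in 4 and 2 of 11 fits that left out 1 heart. Kcnd3, a pore subunit of the transient outward current, was -0.70 ± 0.25 and not called (adjusted p = 0.164). Among 18 tested immediate early genes, Nr4a1, an early-response nuclear receptor, was the only call. It had 33.7, 16.0, 17.5, 20.9 and 24.7 CPM in tet-off hearts and 18.6 to 46.0 CPM (median 42.9) in nontransgenic hearts. P1_ntg_10546-4 was the low one of its group and overlapped the tet-off hearts. The difference of -0.81 ± 0.20 (adjusted p = 0.0437) was called in 2 of 11 fits that left out 1 heart.

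Enzymes of cholesterol synthesis and factors of ribosome biogenesis were listed after the called genes had been seen, so their counts are a description. Of 25 cholesterol synthesis genes tested, 4 were called higher (against 0.791% of all genes tested) and 0 lower. A positive difference was found for 22, and the median was 0.28, against -0.01 over all genes tested. Lss, lanosterol synthase, had 18.7, 16.0, 18.5, 17.2 and 19.6 CPM in tet-off hearts, against 10.3 to 14.4 CPM (median 11.2) in nontransgenic hearts. All tet-off hearts were higher (0.60 ± 0.11, edgeR adjusted p = 0.00839). Lss overlaps an exon of 4930483K19Rik on the opposite strand. Mevalonate kinase Mvk (0.52, adjusted p = 0.0301) and the acetyl-CoA synthetase Acss2 (0.39, adjusted p = 0.0435) were also called. Acss2 overlaps an exon of 4930471I20Rik on the opposite strand. Of 36 ribosome biogenesis genes tested, 4 were called higher (against 0.791% of all genes tested) and 0 lower. A positive difference was found for 34, and the median was 0.17, against -0.01 over all genes tested. Grwd1, a ribosome assembly factor, had 24.4, 20.1, 24.4, 25.3 and 26.9 CPM in tet-off hearts and 11.99 to 19.5 CPM (median 16.1) in nontransgenic hearts. These did not overlap either (0.59 ± 0.11, adjusted p = 0.00996). The processing factor Rrp12 (0.62, adjusted p = 0.0497), the RNA polymerase I subunit Polr1e (0.47, adjusted p = 0.0291) and the rRNA methyltransferase Nop2 (0.41, adjusted p = 0.0458) were also called. Most of these calls were fragile. Of 11 fits that left out 1 heart, Mvk was called in 4, Acss2 in 2, Rrp12 in 2, Polr1e in 3 and Nop2 in 2, and none of these 5 was called with the title number as a random effect (adjusted p = 0.0844 to 0.153). Over the alternatives 1 to 5 sterol genes and 1 to 7 ribosome biogenesis genes were called higher. The mitotic kinase Plk1 was the single call among 40 cell cycle genes (0.43 ± 0.10, adjusted p = 0.0458), and it held under 9 of 23 alternatives.

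Of the 37 cell type and pathway lists, 24 had no called gene. Macrophage markers had a median of -0.24 with 0 of 16 called, 5 with an unadjusted p under 0.05 (against 16.2% of all genes tested), and a summed level of 132 to 158 CPM in tet-off hearts and 159 to 188 CPM in nontransgenic hearts, which did not overlap. Summed fibroblast markers were 2629 to 5556 CPM in tet-off hearts and 3269 to 5798 CPM in nontransgenic hearts, endothelial markers 1983 to 2418 CPM and 2103 to 2441 CPM, and atrial markers 877 to 2195 CPM and 776 to 3359 CPM. All of these overlapped. Sln, sarcolipin of the atria, had the widest gap of the atrial genes (-1.66 ± 0.81) and did not pass (edgeR adjusted p = 0.316). Summed red blood cell markers were 45.9 to 82.6 CPM in tet-off hearts and 47.8 to 69.2 CPM in nontransgenic hearts, with 4 genes of the list at 0 in all 11 hearts. Summed skeletal muscle markers were 161 to 255 CPM in tet-off hearts and 194 to 273 CPM in nontransgenic hearts. The part of any of these in the calls was not tested, except that a score of the atrial genes as a covariate left 171 of the 177 called among 277.

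**Figure D4:**
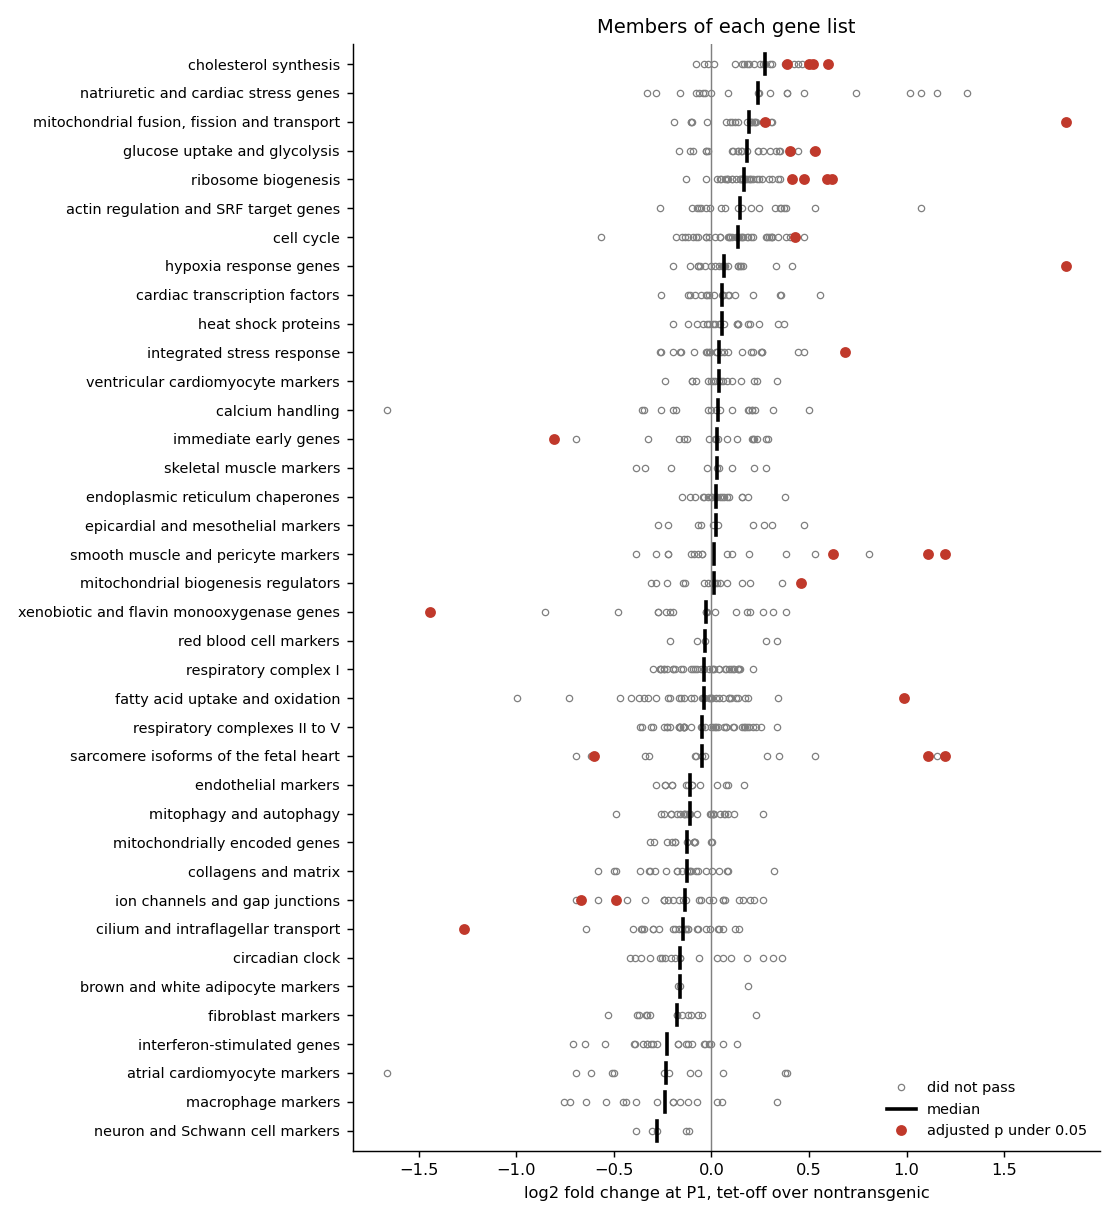
Log2 fold change at P1, tet-off over nontransgenic, of each tested gene (points) of 36 lists with a tested gene and the 2 lists added later, with called genes in red and a bar at the median. List medians lie between -0.28 and 0.28, and red points are scattered over many lists.

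Hearts of the same genotypes at P21 (5 tet-off, 6 nontransgenic) and 5 weeks (3 and 4), all from left ventricle and made in batches of their own, gave a second measurement. Age, batch and tissue piece cannot be told apart. At P21 222 genes were called of 13585 tested (1.63%), and at 5 weeks 16 of 13661 (0.117%), where 604 had an unadjusted p under 0.05. Of the 172 genes called at P1 that were tested at P21, 11 were called again with the same sign and 0 with the opposite sign, which is 6.4% of them and 4.95% of the P21 calls. The direction was the same for 144 (83.7%), against 58.7% of the 13139 genes tested at both ages. At 5 weeks 1 was called again, and the direction was the same for 101 (58.7%), against 54.0% of the 13083 genes tested at both ages.

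Endod1 was the gene called at every age. Its mean was 124 CPM in tet-off hearts and 13.5 CPM in nontransgenic hearts at P21 (log2 fold change 3.20 ± 0.18, edgeR adjusted p = 1.52e-11) and 68.3 CPM and 7.80 CPM at 5 weeks (3.12, adjusted p = 9.11e-05). Glo1 (1.47 ± 0.19, adjusted p = 0.000107), Dnahc8 (1.80, adjusted p = 0.00955) and Sesn3 (0.65, adjusted p = 0.0204) were called at P21 and not at 5 weeks, where Glo1 was 0.46. At P21 Glo1 ran from 146 to 276 CPM in tet-off hearts and from 75.3 to 87.5 CPM in nontransgenic hearts, without overlap. Ttc30b was also lower at P21 (-0.88, adjusted p = 0.0367). The remaining repeats, each called at P1 in 1 to 6 of 11 fits that left out 1 heart, were Tgm2, a transglutaminase (0.50 at P1 and 0.60 at P21), Agfg2 (0.45 and 0.50), Fbxw7, the substrate adaptor of a ubiquitin ligase (-0.39 and -0.44), Tmem108 (-0.60 and -0.95), Zfp945 (-0.81 and -0.94) and Fam46b, a member of a family of poly(A) polymerases. Fbxw7 overlaps an exon of Dear1 on the opposite strand.

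Fam46b had 7.91, 4.55, 10.3, 22.0 and 13.0 CPM in tet-off hearts at P1, against 2.96 to 5.35 CPM (median 3.98) in nontransgenic hearts. It was higher by 1.53 ± 0.34 at P1 (called under 13 of 23 alternatives) and by 1.52 at P21 (edgeR adjusted p = 0.000468), and was -1.85 at 5 weeks (adjusted p = 0.331). Tested directly, the tet-off to nontransgenic difference changed between P1 and P21 for 7 of 14098 genes (0.0497%, with 982 at an unadjusted p under 0.05) and between P1 and 5 weeks for 36 (0.255%, with 1100). Among genes called at P1 these were Hexa at P21, by 0.65 (adjusted p = 0.045), and 10 genes at 5 weeks, the greatest change being that of Fam46b (-3.37 ± 0.57, adjusted p = 0.005). For most genes called at P1, the loss of the call at later ages is therefore not shown to be a change of the difference. Fmo1 is an example, at -1.44 at P1, -0.47 at P21 (adjusted p = 0.147) and -1.27 at 5 weeks (adjusted p = 0.552).

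**Figure D5:**
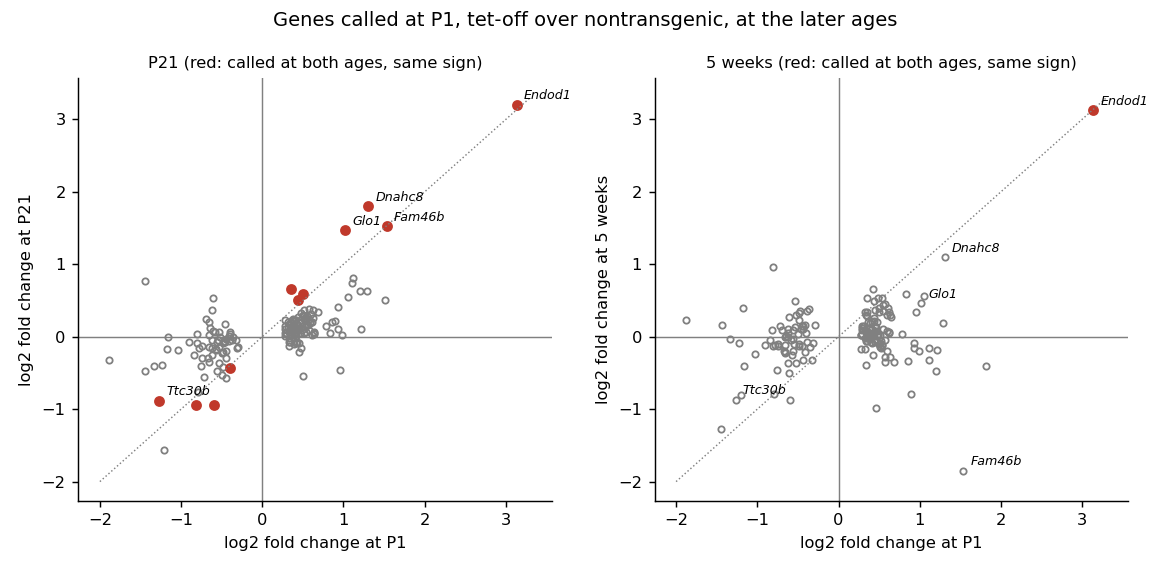
Log2 fold change, tet-off over nontransgenic, of the genes called at P1 (horizontal axis) against the same at P21 and at 5 weeks (vertical axes), with genes called at both ages in red and a dotted line of equality. Endod1 lies on the line at both later ages, near 3.14 at P1, and Fam46b lies at -1.85 at 5 weeks.

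Of the 177 genes called at P1, the mean of the Mfn2AA hearts was nearer to the tet-off mean than to the nontransgenic mean for 141 (79.7%), against 57.1% of all genes tested. The mean of the Mfn2wt hearts was nearer to the tet-off mean for 67 (37.9%), against 47.6% of all genes tested. The 177 were chosen on the same tet-off and nontransgenic hearts, so no test is given. Mfn2AA hearts share title numbers with tet-off hearts, and Mfn2wt hearts share theirs with a nontransgenic heart. Glo1 was 158 to 196 CPM in Mfn2AA hearts and 75.1 to 96.9 CPM in Mfn2wt hearts, with no overlap between them, as for Endod1.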

How the data were processed

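Polyadenylated RNA of 63 mouse heart libraries was measured, 18 of them of P1. Per the submitters' processing notes, reads were handled with Bowtie2, TopHat2 2.0.10, HTSeq and Cufflinks 2.1 on build mm10. The deposited count table holds raw whole-number counts per gene from the authors, with no normalization. The deposited FPKM table, scaled by the authors to transcript length and library size, was used for the human transgene, which it lists, and for an alternative test. The deposited annotation gives exon base positions and no other score.

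Counts were tested with edgeR 4.0.16 in R 4.3.3 (TMM scaling, filterByExpr, quasi-likelihood F test) over the 18 P1 libraries of 4 genotypes, and genes with a Benjamini-Hochberg adjusted p under 0.05 over all genes tested were called. P21 and 5 weeks were fitted likewise on their own 23 and 15 libraries, and changes with age on 29 libraries. CPM are counts scaled to library size with TMM factors. Alternatives used DESeq2 1.42.0, limma 3.58.1 (FPKM, or voom with the title number), other filters and scalings, covariates, and each heart left out. The methods were tested on simulated data. The title number was not treated as a pairing.

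The genes named were the transgene, Mfn2, Park2 and Pink1, up to 3 called and 1 uncalled member of each list, the 12 greatest rises and falls without overlap, repeats at all ages and called changes with age. A further 22 were named after their values were seen: neighbours of Endod1, Glo1 and Zfp949, Myh11, Tagln, Cnn1, members of the added lists and the genes repeated at P21. Members and lists were chosen with earlier results of these data known. Nothing says that the hearts of a group came from separate litters, so p-values measure the spread between these samples.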

Additional observations from a re-analysis of the deposited data

Results flagged for a closer look

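In 136 checks over both groups, 14 (10.3%) had 1 library far from its group. The cut-off would flag about 1 in 20 of normally spread values. CPM and FPKM, mostly of genes picked as called, need not be spread so. The stray hearts were P1_tetoff_10619-2 for Kcnip2 (43.44 CPM) and AI661453 (11.28 CPM), P1_tetoff_10619-3 for Colq (27.46 CPM) and BC026585 (15.37 CPM), and P1_tetoff_10587-1 for Ttc30b (4.694 CPM) and Mvk (15.84 CPM). Among nontransgenic hearts they were P1_ntg_10546-4 for Nr4a1 (18.62 CPM) and Acsl3 (18.11 CPM) and P1_ntg_10582-1 for Hexa (40.18 CPM). The summed red blood cell markers of P1_tetoff_10587-1 (82.59 CPM), the lung and thymus markers of P1_tetoff_10586-2 (4.163 CPM) and the skeletal muscle markers of P1_ntg_10582-4 (272.7 CPM) stood apart as well. The human MFN2 transgene stood apart in P1_tetoff_10587-1 (155 FPKM) and P1_ntg_10582-5 (97.63 FPKM), both of which also held Xist and Y-linked reads.

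The difference between tet-off and nontransgenic hearts changed with age, by edgeR's test of the change, for Hexa between P1 and P21 (0.65 on the log2 scale) and, between P1 and 5 weeks, for Fam46b (-3.37), Shisa3 (-1.68), Capn3 (1.57) and Fbxw7 (0.76). Age, batch and tissue piece cannot be told apart in these.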

How the results depend on the processing

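At P1 177 genes were called with edgeR, 181 with DESeq2's size factors in edgeR and 157 without a filter. The count was 123 with the tet-off and nontransgenic hearts alone, 215 with a GC content correction and 277 with an atrial score. It was 432 with DESeq2, and 96 and 96 with limma on log2(FPKM + 1) and log2(FPKM + 0.1). Limma's voom with the title number as a random effect gave 50, and leaving out the 4 libraries with Xist and Y-linked reads gave 79. The last was added after seeing the data. Leaving out each heart gave 73 to 355. At P21 the count was 222, 190 without a filter, 333 with DESeq2 and 118 to 214 on leaving out a heart. At 5 weeks it was 16, 64 with DESeq2 and 5 to 25 on leaving out a heart. The change between P1 and P21 was called for 7 genes, 3 without a filter, 45 with DESeq2 and 3 to 19 on leaving out a heart, and that between P1 and 5 weeks for 36, 78 with DESeq2 and 14 to 60 on leaving out a heart. The P1 calls repeated at P21 numbered 11, 5 at 2-fold or more and 25 with DESeq2, and those repeated at 5 weeks 1, 3 with DESeq2. The log2 difference of the transgene was 1.42, and 0.867 to 2.01 over the alternatives. Myh11 (-0.09) turned to 0.046 with the atrial score and ran from -0.24 to 0.052 on leaving out a heart, turning positive without P1_ntg_10582-4, P1_tetoff_10586-2 or P1_tetoff_10619-2, and Tagln (-0.05) turned to 0.24 with the atrial score and ran from -0.13 to 0.10, turning positive without P1_ntg_10582-1. The cause was not tested. No paired analysis was possible because tet-off and nontransgenic hearts share no title number. Depth limits genes of a few CPM most, such as Mgarp and Nipal4.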
